A study of Mus musculus with 2 samples.

Results

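Regulatory T cell genes were followed through the immune cells of mouse tumours. The 10 genes, Foxp3, Il2ra, Ikzf2, Tnfrsf4, Tnfrsf9, Tnfrsf18, Il10, Nt5e, Izumo1r and Icos, were chosen by symbol from the 32285 genes of the deposited count matrices, and each symbol matched 1 gene. CD45+ cells were sorted from digested tumours of C57BL/6 mice and profiled in droplets with a 5′ gene expression kit, giving 1 WT library and 1 library labelled Ythdf2 KO. YTHDF2 is a reader protein that binds methylated adenosines in RNA. The sample labels speak of knockout tumours, the series' design text of conditional knockout mice and the series title of a tumour-intrinsic role. The tumour line, the deleted exons, the cells that lost the gene and the number of animals per library are not given in the sources used here. With 1 library per genotype, genotype and library cannot be told apart, no difference between them has a replicate check, and every interval given here covers counting error only.

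Regulatory T cells are CD4 T cells that restrain other immune cells, and their identity is held by the transcription factor FOXP3. They carry the high-affinity receptor for interleukin-2, a growth factor made mainly by other T cells, and receptors of the tumour necrosis factor family that receive costimulatory signals from antigen-presenting cells. They act on their surroundings in part through interleukin-10 and through surface enzymes that turn extracellular nucleotides into adenosine, and in tumours they often show an activated form of this programme. By role, Foxp3 and Ikzf2 (Helios) encode transcription factors. Il2ra (CD25), Tnfrsf4 (OX40), Tnfrsf9 (CD137), Tnfrsf18 (GITR) and Icos encode receptors, Il10 a secreted cytokine, Nt5e (CD73) the enzyme that makes adenosine from AMP, and Izumo1r (folate receptor 4) a surface protein of the folate receptor family.

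Promoter sequence is shown because 8 of the other 9 genes were higher in T cells with a Foxp3 UMI than in those without. RefSeq promoters of build GRCm38.p6 matched 7 of the 10 genes with 9 start sites, and Ikzf2, Il10 and Icos had no entry. In the 250 bases before each start, both strands were searched for TTCNNNGAA, the core element bound by STAT factors, which relay interleukin-2 receptor signals. Its reverse complement is the same pattern, so each match counts once. The element was found in 3 of the 9 promoters, those of Foxp3, Tnfrsf9 and Tnfrsf18, and in 7.02% of 32851 promoters of the same length. The forkhead element TGTTTAC was in none of the 9 and in 3.17% of all promoters. For NF-kappaB a fixed sequence with no variable base was searched, found in none of the 9 and in 0.140% of all promoters. Variants of that sequence were not searched, so these values do not show whether the windows hold other NF-kappaB sequences. The sequences printed here, each 5′ to 3′ and ending at the base before the start, show Foxp3 and Tnfrsf9 with the element in capitals, beside Il2ra and Tnfrsf4, which were higher in Foxp3-positive CD4 T cells of both libraries and whose windows hold no match.
Foxp3 chrX:7580233-7580482 (+ strand): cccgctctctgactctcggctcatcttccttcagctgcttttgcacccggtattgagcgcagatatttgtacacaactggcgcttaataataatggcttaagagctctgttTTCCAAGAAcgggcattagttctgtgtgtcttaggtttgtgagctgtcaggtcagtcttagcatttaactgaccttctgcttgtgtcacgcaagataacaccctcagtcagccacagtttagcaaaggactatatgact
Tnfrsf9 chr4:150927749-150927998 (+ strand): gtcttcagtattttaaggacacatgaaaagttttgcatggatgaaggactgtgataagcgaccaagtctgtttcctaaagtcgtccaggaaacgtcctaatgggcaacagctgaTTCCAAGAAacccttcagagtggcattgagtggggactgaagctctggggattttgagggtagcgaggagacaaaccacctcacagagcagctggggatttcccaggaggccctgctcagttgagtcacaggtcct
Il2ra chr2:11642542-11642791 (+ strand): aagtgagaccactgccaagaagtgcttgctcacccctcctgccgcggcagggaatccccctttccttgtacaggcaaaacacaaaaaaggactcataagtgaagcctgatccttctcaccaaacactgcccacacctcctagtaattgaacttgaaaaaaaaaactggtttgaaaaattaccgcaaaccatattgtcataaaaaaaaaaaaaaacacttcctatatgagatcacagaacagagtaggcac
Tnfrsf4 chr4:156013445-156013694 (+ strand): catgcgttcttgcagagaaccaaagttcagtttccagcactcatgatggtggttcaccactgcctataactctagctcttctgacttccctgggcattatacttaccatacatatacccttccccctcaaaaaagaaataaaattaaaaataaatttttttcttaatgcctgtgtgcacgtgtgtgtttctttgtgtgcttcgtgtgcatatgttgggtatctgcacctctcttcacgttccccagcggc
In the Foxp3 window the element lies from base -139 to base -131 before the start, and in the Tnfrsf9 window from -136 to -128. The Tnfrsf18 match lies from -99 to -91 in chr4:156026072-156026321. A match is a description of these letters, and no binding was measured.

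In GRCm38 coordinates the genes span chrX:7573644-7595245 for Foxp3, chr1:69531214-69687245 for Ikzf2, chr2:11642807-11693193 for Il2ra and chr4:156013843-156016612 for Tnfrsf4. Tnfrsf9 spans chr4:150914562-150946102, Tnfrsf18 chr4:156026164-156028895 and Icos chr1:60977927-61000320. Il10 spans chr1:131019845-131024974, Nt5e chr9:88327197-88372092 and Izumo1r chr9:14885814-14903949. All are protein coding. Foxp3 overlaps Flicr on its own strand and Ppp1r3f and Ccdc22 on the other. Ikzf2 overlaps Gm29114, Gm29112 and Gm28112, Tnfrsf9 overlaps Camta1, and Tnfrsf18 overlaps Gm16008. Whether counting used strand is not given in the sources used here, so reads in these overlaps could belong to either gene.

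The WT library held 168912853 UMIs (unique molecular identifiers, each standing for 1 captured RNA molecule) in 20886 barcodes, and the library labelled Ythdf2 KO 134066610 UMIs in 16312 barcodes, with medians of 5554 and 5617 per barcode. After filters and doublet removal 18782 and 14576 barcodes were left, and 101 barcode sequences occurred in both libraries. Levels are given as CPM, the UMIs of a gene per 1000000 UMIs of all genes in the same cells. Ythdf2 itself was counted at 48.4 CPM in the WT library and 46.0 in the library labelled Ythdf2 KO, and in gated T cells at 57.8 (95% Poisson interval 51.3 to 64.8) and 46.3 (40.0 to 53.3). Ythdf2 RNA thus gave no clear sign of the deletion in these cells, and where the deleted stretch lies outside the counted part this level checks nothing. Every direction is therefore given for the library labelled Ythdf2 KO, or KO-labelled library. T cells were gated as barcodes with 3 or more UMIs of Cd3d, Cd3e, Cd3g and Trac and at most 2 of 6 macrophage markers, which left 767 WT and 618 KO-labelled T cells. Of all barcodes with 3 or more T cell marker UMIs, 68.3% (1752 of 2565) in WT and 65.2% (1216 of 1866) in the KO-labelled library held more than 2 macrophage marker UMIs. Those barcodes had medians of 12517 and 14943 UMIs against 4703 and 4869 in the others. The 1456 and 968 of them without RNA of a further lineage are reported apart as T barcodes with macrophage RNA. Whether such a barcode held more than 1 cell or a T cell with free macrophage RNA cannot be told apart here, which holds for every value given for them.

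Most Foxp3 RNA was found in barcodes of mixed content. The WT library held 1178 Foxp3 UMIs in 564 barcodes and the KO-labelled library 913 in 438 barcodes. Only 5.77% and 5.37% of these UMIs lay in gated T cells, while 57.5% and 54.1% lay in T barcodes with macrophage RNA and 19.7% and 22.8% in T barcodes with RNA of another lineage. Izumo1r and Tnfrsf4 were spread in a similar way, with 47.9% and 51.3% of Izumo1r UMIs and 46.5% and 49.9% of Tnfrsf4 UMIs in T barcodes with macrophage RNA.

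The other genes were shared with further cell types. NK cells held 30.5% of Tnfrsf9 UMIs in WT and 24.8% in the KO-labelled library, 17.6% and 14.9% of Tnfrsf18 UMIs, 11.5% and 10.8% of Ikzf2 UMIs, and 11.5% and 8.65% of Icos UMIs. They also held 10.0% and 9.69% of Il2ra UMIs and 10.0% and 7.44% of Nt5e UMIs. Monocytes and macrophages held 25.0% and 32.5% of Il10 UMIs and 13.7% and 20.9% of Nt5e UMIs. Mature dendritic cells, named from Fscn1, Ccl22 and Ccr7, held 7.07% and 5.32% of Il2ra UMIs and 5.76% and 3.97% of Tnfrsf4 UMIs. None of the 10 genes was therefore read only from T cells. Most UMIs of Tnfrsf9, Tnfrsf18 and Nt5e lay outside the T-gated barcodes kept after doublet removal in both libraries. The same held for Il2ra in WT and for Il10 in the KO-labelled library.

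**Figure D1:**
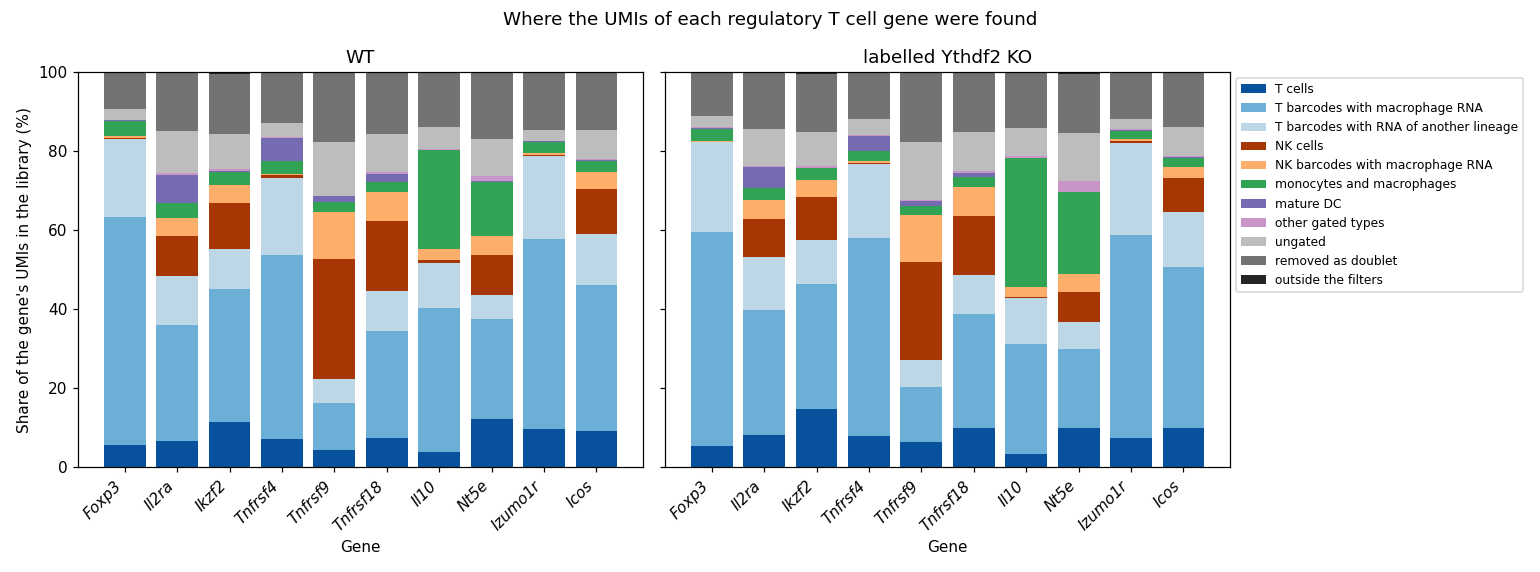
Share of each gene's UMIs (vertical axis, percent of the gene's UMIs in the library) by compartment for the 10 genes, WT left and labelled Ythdf2 KO right, with colours for the compartments. T-gated barcodes of all 3 kinds hold most of the Foxp3, Izumo1r and Tnfrsf4 UMIs, NK cells hold 30.5% and 24.8% of those of Tnfrsf9, and monocytes and macrophages hold 25.0% and 32.5% of those of Il10.

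Levels were then set side by side over 10 gated types, in CPM. No gate used any of the 10 genes. Gated T cells had the highest level of 7 genes in WT and of 6 in the KO-labelled library. The exceptions in both libraries were Tnfrsf9, highest in NK cells, and Il2ra and Tnfrsf4, highest in mature dendritic cells. In the KO-labelled library Il10 was nominally highest in cDC1 cells, from 7 UMIs in 27 cells, with an interval that overlapped that of T cells.

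Foxp3 stood at 13.6 CPM in WT T cells (68 UMIs) and 11.8 in KO-labelled T cells (49 UMIs). In NK cells it was at 0.189 in WT and at 0 in the KO-labelled library, where 3 counts would give 0.282. Monocytes and macrophages gave 0.931 and 0.630, and most other types had no Foxp3 UMI or 1 to 3. The Foxp3 interval of T cells was thus clear of NK cells and macrophages in both libraries. It was not clear of the small types, whose 0 or 1 UMIs allow wide intervals: mast cells or basophils and cDC1 cells in both libraries, B cells and plasmacytoid dendritic cells in WT, and cDC2 cells in the KO-labelled library. Ikzf2, whose product is found in regulatory T cells and in other activated lymphocytes, was at 247.9 and 286 in T cells and at 58.0 and 82.1 in NK cells. Mast cells or basophils had Ikzf2 at 139.7 (13 UMIs) and 126.6 (10 UMIs), overlapping T cells in WT.

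The receptors differed in where they were highest. Il2ra was at 267 and 281 in mature dendritic cells, at 139 and 142 in T cells, and at 49.8 and 66.0 in NK cells. Tnfrsf4 was at 203 and 205 in mature dendritic cells, at 142 and 137 in T cells, and at 3.30 and 1.88 in NK cells. The intervals of mature dendritic cells and T cells were clear of each other for both genes in both libraries. Tnfrsf9 was at 732 and 725 in NK cells, at 455 and 473 in T cells and at 257 and 282 in mature dendritic cells. Tnfrsf18 was at 266 and 287 in T cells and at 147 and 169.7 in NK cells, and Icos at 232 and 214 in T cells and at 68.8 and 72.2 in NK cells, each with T cells clear of NK cells.

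The effector genes and Izumo1r were lower. Il10 was at 25.7 and 17.3 in T cells and at 16.3 and 15.9 in monocytes and macrophages, and T cells were clear of macrophages in WT only. Nt5e was at 69.2 and 28.1 in T cells, at 26.8 and 21.4 in neutrophils and at 13.3 and 8.17 in NK cells. Izumo1r was at 16.6 and 9.59 in T cells, and no other gated type had more than 22 UMIs of it in WT or 12 in the KO-labelled library, both in monocytes and macrophages.

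**Figure D2:**
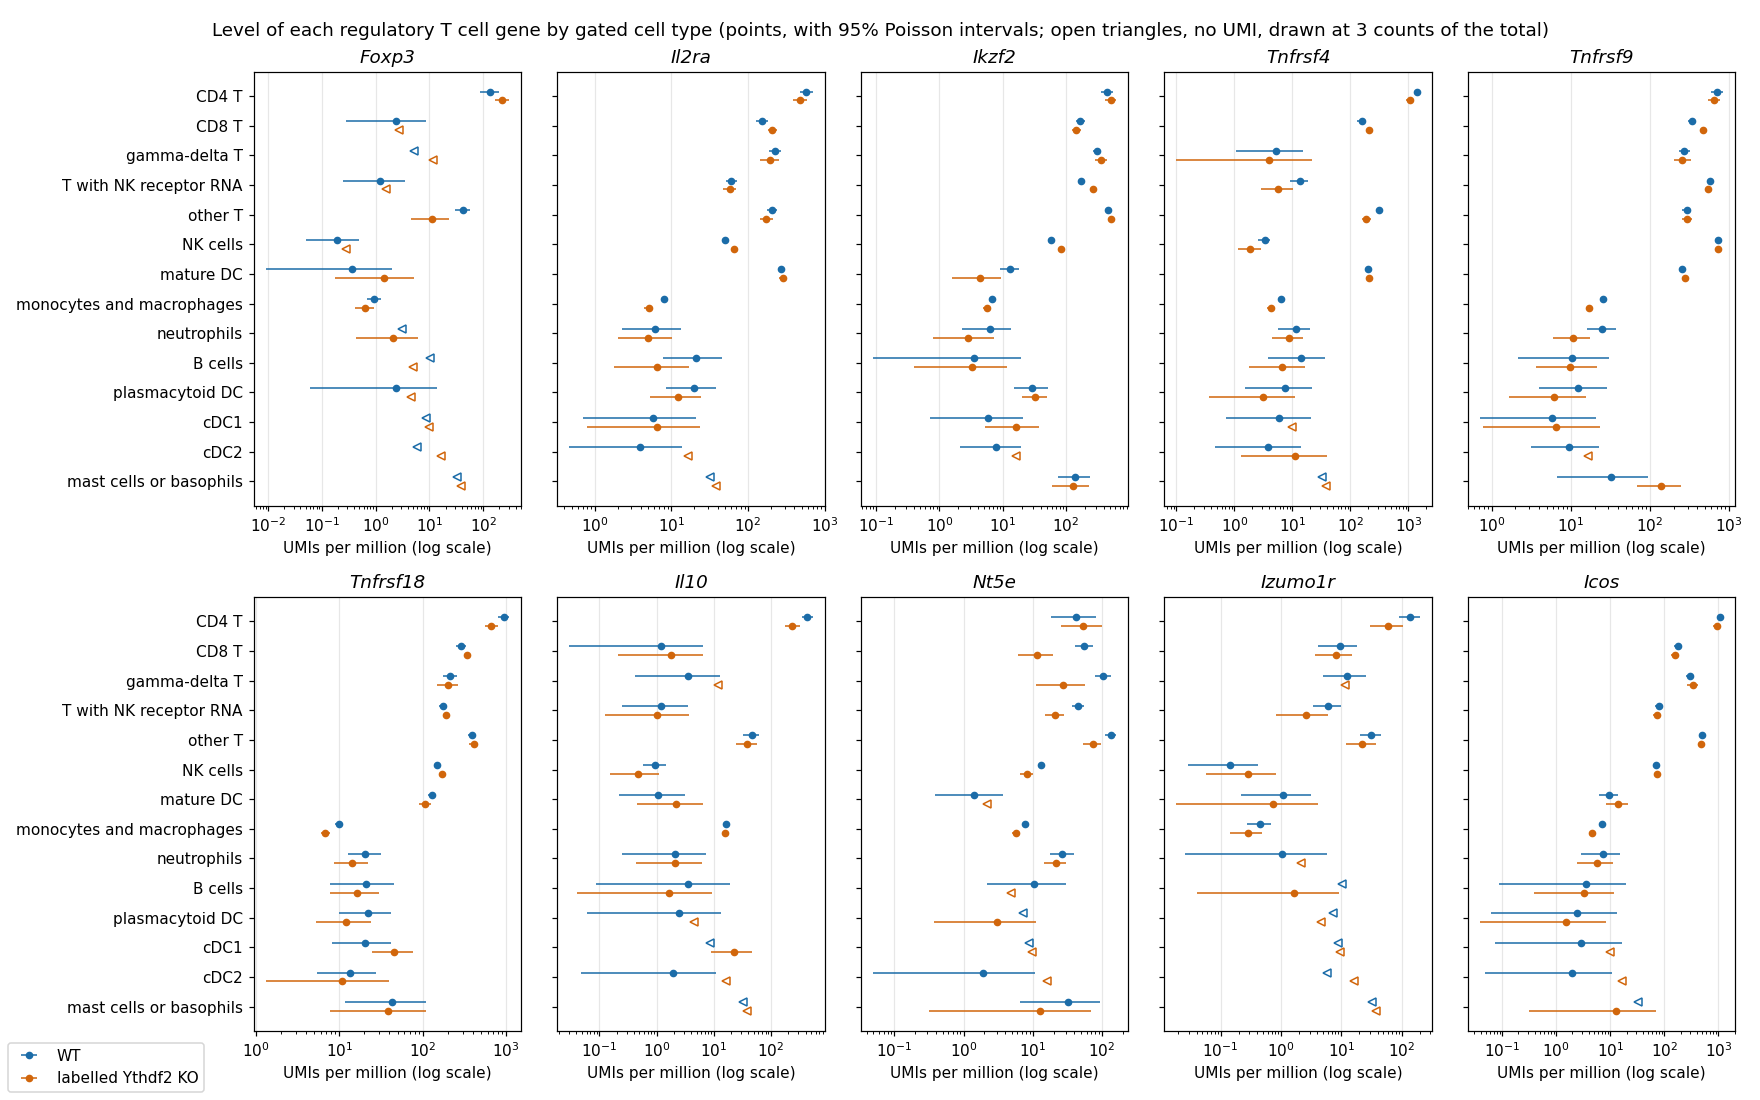
Level of each gene (horizontal axis, CPM, log scale) in 5 T cell subsets and 9 other gated types, WT in blue and labelled Ythdf2 KO in orange, with bars for 95% Poisson intervals and open triangles for types without a UMI, drawn at 3 counts of the total. CD4 T cells lead for Foxp3, Il2ra, Tnfrsf4, Tnfrsf18, Il10, Izumo1r and Icos, and NK cells lie level with them for Tnfrsf9.

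Within the T cells, CD4 T cells (a Cd4 UMI and no Cd8 UMI, 49 WT and 40 KO-labelled cells) had the highest level of 7 genes in both libraries. T cells without Cd4 and Cd8 UMIs were split further. Those with NK receptor RNA held 2 or more UMIs of Ncr1, Klrb1c, Eomes and Klra8 together. Eomes encodes a transcription factor, so a receptor UMI was not required. Of the rest, gamma-delta T cells held a Trdc and a Tcrg-C UMI. Cells meeting none of these gates are called other T cells here. They could hold Trdc or Tcrg-C RNA alone, or 1 UMI of the NK genes. Tnfrsf4 was at 1389.6 CPM in WT CD4 T cells and 1069 in KO-labelled ones, against 157 and 209.9 in CD8 T cells and 5.26 and 3.91 in gamma-delta T cells. Icos was at 1069.7 and 945 in CD4 T cells against 178 and 157 in CD8 T cells. Both genes were clear of every other T subset in both libraries. Il10 was at 430.0 and 236 in CD4 T cells and at 1.18 and 1.79 in CD8 T cells, from 1 and 2 UMIs. Foxp3 was at 136 and 226 in CD4 T cells and at 42.2 and 11.2 in other T cells. In CD8 T cells it was at 2.36 and 0, where 3 counts would give 2.68 in the KO-labelled library. Ikzf2 and Nt5e broke this pattern. Ikzf2 was at 463 and 516 in other T cells and at 446 and 505 in CD4 T cells, which overlapped. Nt5e was at 134 and 73.4 in other T cells, overlapping gamma-delta T cells at 103 in WT and CD4 T cells at 53.7 in the KO-labelled library.

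Cells with Foxp3 RNA were few. Each cell was thinned to 1000 UMIs, so that shares compare at 1 depth. Foxp3 was then found in 17 of 759 WT T cells (2.24%, exact binomial interval 1.31 to 3.56) and 11 of 613 KO-labelled T cells (1.79%, 0.899 to 3.19), with 8 and 5 shallower cells left out. The unthinned shares were 4.82% (37 of 767) and 3.56% (22 of 618). Background was read in macrophages, which should lack the gene: 0.0958% and 0.0976% after thinning and 0.443% and 0.374% before, at median depths of 4657 and 5250.5 UMIs against 4363 and 4670.5 in T cells. Both T cell shares were above this background, and the difference between the libraries was within their counting intervals. Of the 37 WT cells, 13 were among 49 CD4 T cells, 21 among 234 other T cells, 2 among 224 T cells with NK receptor RNA, 1 among 115 CD8 T cells and 0 among 144 gamma-delta T cells. Of the 22 KO-labelled cells, 15 were among 40 CD4 T cells and 7 among 179 other T cells, and none among 130 CD8, 68 gamma-delta or 199 NK receptor T cells. At least 2 Foxp3 UMIs were found in 19 of the 37 and 12 of the 22 cells.

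Within CD4 T cells, the barcodes with a Foxp3 UMI were set against those without. There were 13 positive and 36 negative cells in WT and 15 and 25 in the KO-labelled library, at median depths of 2839 and 3781, and 3217 and 2814 UMIs. At these depths Foxp3 RNA can be missed, so the negative side can include regulatory T cells. Without thinning, 14 of the 36 WT and 7 of the 25 KO-labelled negative cells held 5 or more of the other 9 genes. A gene counted as different when its ratio of CPM was at least 1.5-fold either way, its exact 95% interval left out 1, and both sides together held 30 UMIs or more. Foxp3 made the split and is not counted. In WT, 5 of the 7 genes with enough UMIs were higher in Foxp3-positive cells, where 10.6% of 907 genes of any kind were. In the KO-labelled library 6 of 7 were higher, against 12.0% of 919 genes. None was lower in either library, where 9.59% and 10.4% of genes were. The median log2 ratio was 1.27 and 1.02 for these 7 genes and 0.00 and 0.06 for all genes.

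Il2ra was at 1214 CPM in positive and 369 in negative cells in WT, a ratio of 3.29 (2.22 to 4.88), and at 831 and 194 in the KO-labelled library, a ratio of 4.29 (2.57 to 7.44). Tnfrsf4 was at 3215 and 793 in WT, a ratio of 4.05 (3.16 to 5.22), and at 1842 and 446 in the KO-labelled library, a ratio of 4.13 (2.95 to 5.88). Ikzf2 was at 1086 and 237 in WT, 4.59-fold higher (2.92 to 7.31), and at 734 and 319.9 in the KO-labelled library, 2.30-fold higher (1.48 to 3.62). These 3 genes and Icos, with ratios of 2.42 and 1.79, were past the fold in both libraries. Il10 was past it in WT, at 766 against 320.0 (ratio 2.39, 1.504 to 3.79; 1.27, 0.711 to 2.20, in cells without any macrophage marker UMI), and not in the KO-labelled library, at 277 against 204 (1.36, 0.720 to 2.58). Tnfrsf9 and Tnfrsf18 showed the reverse, with ratios of 1.40 and 1.39 in WT and of 1.83 and 2.03 in the KO-labelled library. Whether these ratios differ between the libraries was not tested, and the intervals of each pair overlap. Nt5e had 8 and 10 UMIs and Izumo1r 26 and 11, too few to count. The WT count was 3 when cells were thinned to 1000 UMIs and 8 when the CD4 gate also took T cells without a Cd4 UMI. Some calls of the KO-labelled library also ended under other settings. Il2ra was at 2.23 (0.793 to 6.51) in thinned cells, from 18 UMIs. Tnfrsf9 was at 1.39 (0.960 to 2.03) when positive cells needed 2 Foxp3 UMIs. With T barcodes with macrophage RNA counted, Tnfrsf9 was at 1.48 and Icos at 1.42.

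The same split was made in CD4 T barcodes with macrophage RNA, which hold more cells: 128 positive and 147 negative in WT and 110 and 82 in the KO-labelled library. Here 7 of 9 genes were higher in WT, where 3.09% of all genes were, and 7 of 8 in the KO-labelled library, against 3.03%. Il2ra was 1.87-fold higher (1.65 to 2.11) in WT and 1.93-fold (1.64 to 2.28) in the KO-labelled library, and Izumo1r, here with enough UMIs, 2.77-fold (2.004 to 3.87) and 1.88-fold (1.29 to 2.79). Il10 was higher in both, by 2.15-fold and 1.69-fold. Tnfrsf9 was at 1.42 in WT and 1.51 in the KO-labelled library. Nt5e was at 1.03 (0.713 to 1.49) in WT, and had 25 UMIs in the KO-labelled library. Positive barcodes were deeper here, at medians of 13129.5 against 10939 in WT and 15239 against 10699 UMIs, and macrophage markers stood at 3100.5 against 3085 and 3024 against 2946 CPM.

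**Figure D3:**
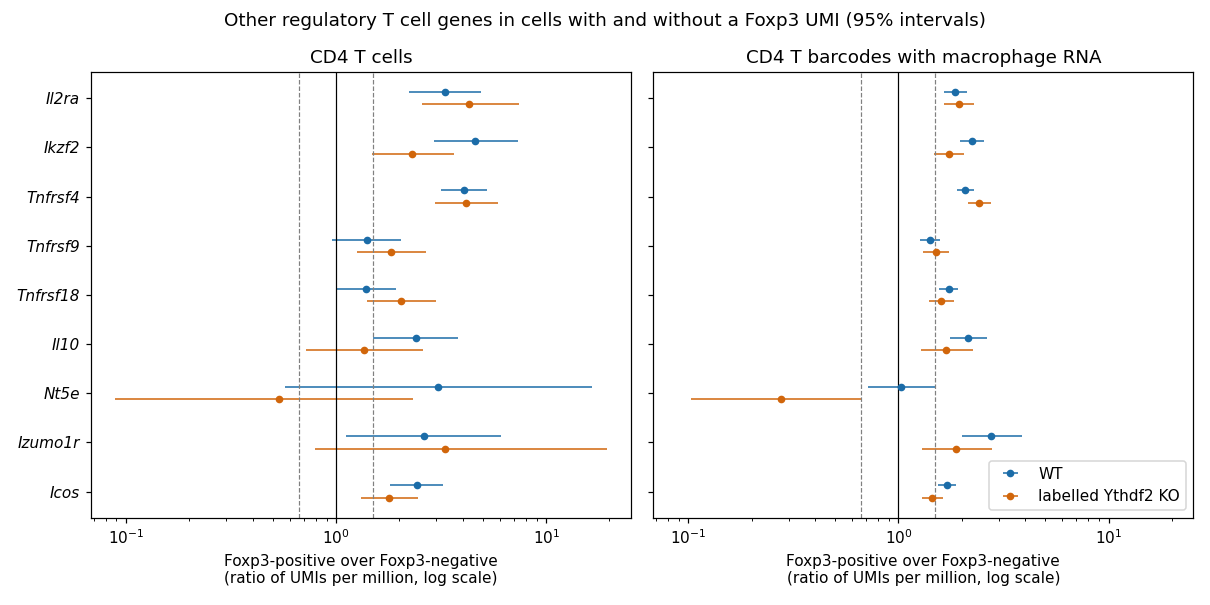
Ratio of CPM in Foxp3-positive over Foxp3-negative cells (horizontal axis, log scale) for the other 9 genes in CD4 T cells, left, and in CD4 T barcodes with macrophage RNA, right, with 95% intervals, WT in blue and labelled Ythdf2 KO in orange, and dashed lines at 1.5-fold. Il2ra, Ikzf2 and Tnfrsf4 lie beyond 1.5-fold in both libraries and both panels, and Nt5e does not lie above it in the right panel.

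Over all T cells the negative side of the same split also holds CD8, gamma-delta and NK receptor T cells. Of the 7 genes with enough UMIs in both splits, 6 had a larger ratio here than within CD4 T cells in both libraries, and Ikzf2 had a larger one in the KO-labelled library only, at 3.63 against 2.30, with 4.10 against 4.59 in WT. In both libraries 8 of 9 genes were higher, where 9.36% and 6.84% of all genes were, and none was lower, where 3.65% and 2.43% were. Tnfrsf4 was 35.4-fold higher in WT and 22.0-fold in the KO-labelled library, Il10 36.2-fold and 68.4-fold, Izumo1r 28.7-fold and 19.7-fold, and Il2ra 9.12-fold and 7.13-fold. Icos, Tnfrsf18, Ikzf2 and Tnfrsf9 followed with WT ratios of 8.72, 5.71, 4.10 and 2.32. Nt5e did not pass in either library, at 42.1 against 69.98 CPM in WT (ratio 0.602, 0.219 to 1.32, from 6 UMIs in positive cells) and at 30.2 against 28.0 in the KO-labelled library (1.08, 0.219 to 3.24, from 3 UMIs). In T barcodes with macrophage RNA, Nt5e was lower in Foxp3-positive than in negative ones of the KO-labelled library, at 8.24 against 17.7 (ratio 0.466, 0.308 to 0.682), where 4.94% of genes were lower, and at 32.3 against 35.5 in WT (0.909, 0.751 to 1.10). Over all T cells Nt5e was thus the 1 gene of the other 9 that was not higher in Foxp3-positive cells of either library.

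The genes were also counted together in single cells. After thinning to 1000 UMIs, Foxp3-positive T cells held a median of 5 of the other 9 genes in both libraries and Foxp3-negative T cells a median of 1. Of the Foxp3-positive cells, 19 of 36 in WT (52.8%) and 12 of 21 in the KO-labelled library (57.1%) held 5 or more. Of the negative cells, 12 of 723 (1.66%) and 9 of 592 (1.52%) did. Without thinning 36 of 37 and 22 of 22 positive cells did, and 106 of 730 and 96 of 596 negative ones. The thinned medians in T barcodes with macrophage RNA were 2 in positive and 1 in negative barcodes of both libraries. Of these positive barcodes 34 of 276 (12.3%) and 27 of 220 (12.3%) held 5 or more, against 18 of 1180 (1.53%) and 4 of 748 (0.535%) of the negative ones. Among the CD4 ones 21 of 128 positive (16.4%) and 6 of 147 negative (4.08%) WT barcodes did. In the KO-labelled library 3 of 110 positive (2.73%) and 1 of 82 negative (1.22%) CD4 barcodes did. Within CD4 T cells the medians were 5 in positive and 2 in negative WT cells and 4 and 2 in KO-labelled cells. Without thinning they were 7 and 4, and 6 and 4.

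A list of 30 further genes tied to regulatory T cells was read the same way over all T cells. In WT 12 of the 23 with enough UMIs were higher in Foxp3-positive cells and none was lower, where 9.36% and 3.65% of all genes were, with a median log2 ratio of 1.44 beside 0.00 over all genes. In the KO-labelled library 11 of 22 were higher and none lower, where 6.84% and 2.43% of all genes were, with a median of 1.20. The largest WT ratios belonged to Prdm1 (8.04, encoding the repressor BLIMP1), Lag3 (7.74, an inhibitory receptor) and Ctla4 (7.43, the inhibitory receptor that competes for CD80 and CD86). Entpd1, the enzyme CD39 that acts before CD73 in adenosine production, was 6.39-fold higher in WT, at 133 against 20.9 CPM, and 3.26-fold higher in the KO-labelled library, at 70.5 against 21.6. In the KO-labelled library Itgae, an integrin chain of tissue-resident T cells, had the largest ratio at 16.2 (7.80 to 31.5, from 13 UMIs in positive cells), followed by Ikzf4 at 8.39. Within CD4 T cells 2 of 6 list genes with enough UMIs were higher in WT (Capg and Lag3), where 10.6% of genes were. None was lower, against 9.59%. In the KO-labelled library 2 of 6 were higher (Ctla4 and Lag3), against 12.0%, and 1 was lower (Satb1), against 10.4%. In CD4 T barcodes with macrophage RNA 9 of 26 were higher in WT and 4 of 25 in the KO-labelled library, against 3.09% and 3.03%. Stat5a was lower there in WT and Gata3 in the KO-labelled library.

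Between the libraries, most of the genes were level in T cells. By the same rule 2 of the 10 were lower in the KO-labelled library, Nt5e and Izumo1r, where 3.83% of 9577 genes were, and none was higher, where 1.81% were. The median log2 ratio of the 10 genes was -0.08 beside -0.03 over all genes. Foxp3 had a ratio of 0.862 (0.584 to 1.26), Il2ra of 1.02 (0.915 to 1.14), Tnfrsf4 of 0.966, Tnfrsf9 of 1.04, Tnfrsf18 of 1.08 and Icos of 0.923 (0.845 to 1.01). Ikzf2 was at 1.15 (1.07 to 1.25). The intervals of these 7 lay between 0.584 and 1.26. In T barcodes with macrophage RNA, where 2.77% of genes were lower and 1.54% higher, Nt5e was the 1 gene of the 10 past the fold.

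**Figure D4:**
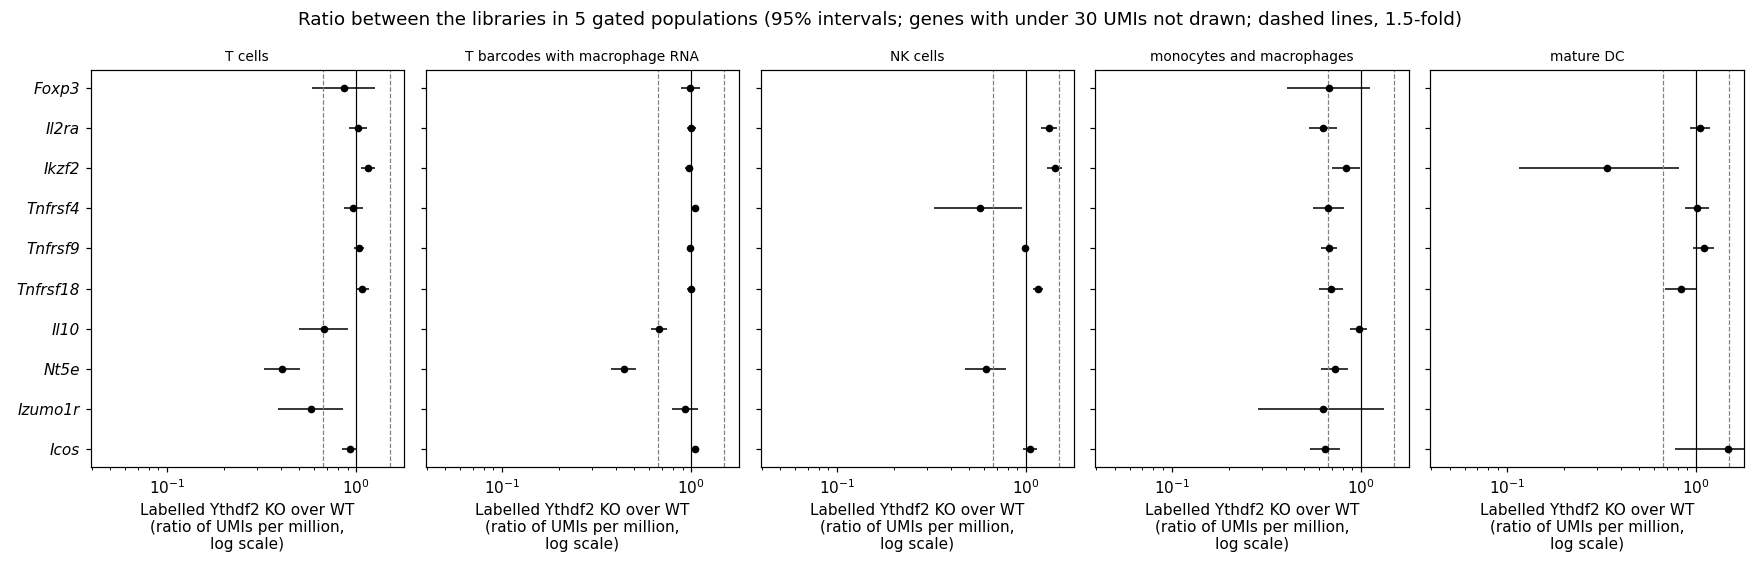
Ratio of CPM, labelled Ythdf2 KO over WT (horizontal axis, log scale), for each gene with 30 UMIs or more in 5 gated populations, with 95% intervals and dashed lines at 1.5-fold. Nt5e lies below 1 in T cells, T barcodes with macrophage RNA, NK cells and macrophages, and the genes of monocytes and macrophages other than Il10 lie together below 1.

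Nt5e showed the widest gap between the libraries. T cells held 345 Nt5e UMIs in WT and 117 in the KO-labelled library, 69.2 against 28.1 CPM and a ratio of 0.406 (0.326 to 0.502). No WT cell held more than 6 of them and no KO-labelled cell more than 4, and the ratio was 0.398 without the highest cell of each library. After thinning, 6.46% of WT and 2.94% of KO-labelled T cells held an Nt5e UMI (unthinned 25.0% and 13.8%), with 8 and 5 cells left out. Mature dendritic cells, at median depths of 5295 and 5220.5 UMIs, had 0 after thinning in both libraries, which allows up to 0.637% and 1.20%. The gap was therefore spread over many cells.

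CD8 T cells had Nt5e at 55.4 CPM in WT and 11.6 in the KO-labelled library (ratio 0.210, 0.104 to 0.394), where 5.67% of genes were lower. In gamma-delta T cells it was at 103 and 27.4 (0.265, 0.102 to 0.581), against 4.69% of genes. T cells with NK receptor RNA had 45.4 and 21.0 (0.463, 0.316 to 0.668), against 3.69%, and other T cells 134 and 73.4 (0.546, 0.380 to 0.774), against 3.05%. CD4 T cells held 8 UMIs in WT and 10 in the KO-labelled library, 42.0 against 53.7 CPM, too few to count. Nt5e was thus lower in each of the 4 T subsets that held enough UMIs.

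In T barcodes with macrophage RNA Nt5e was at 34.8 and 15.3 (0.441, 0.378 to 0.512). Among them CD4 barcodes held 124 and 25 UMIs, 30.9 and 8.74 CPM (0.283, 0.176 to 0.437), where 3.28% of genes were lower, and Foxp3-positive ones 140 and 31 UMIs, 32.3 and 8.24 CPM (0.255, 0.167 to 0.379), where 2.69% were. NK cells had Nt5e at 13.3 and 8.17 (0.614), where 2.46% of genes were lower. Monocytes and macrophages were at 7.83 and 5.70 (0.727, 0.617 to 0.856), short of 1.5-fold, and neutrophils at 26.8 and 21.4 (0.798, 0.456 to 1.41). Every lymphocyte population drawn with 30 UMIs or more had a ratio of 0.655 or less, and both myeloid ones a ratio above 0.7. Whether the ratio differs between these populations was not tested.

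**Figure D5:**
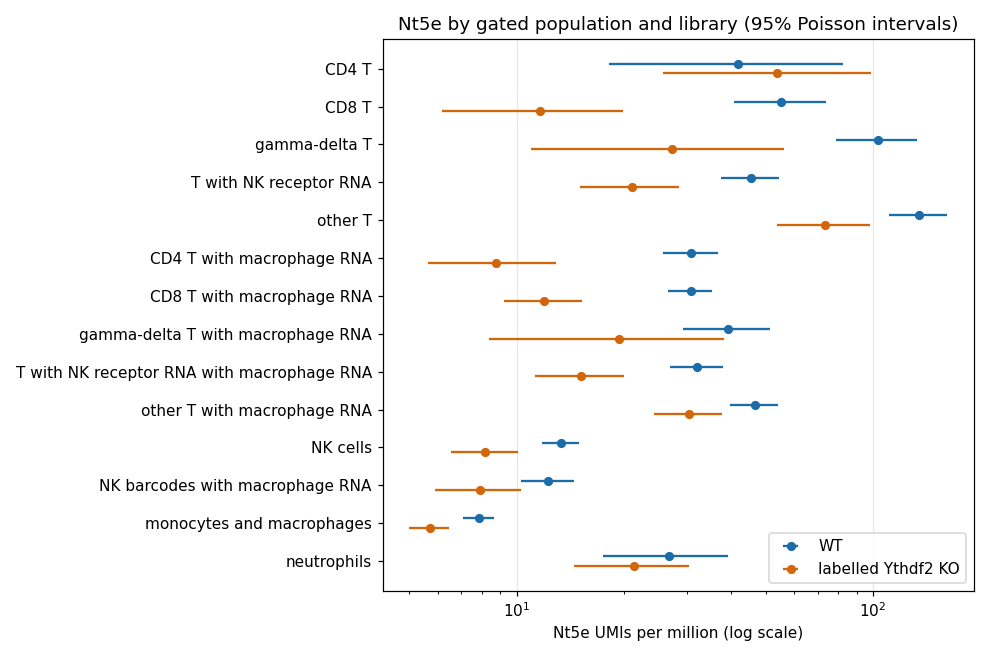
Nt5e level (horizontal axis, CPM, log scale) in 14 gated populations, WT in blue and labelled Ythdf2 KO in orange, with 95% Poisson intervals. The WT point lies to the right in every population drawn except CD4 T cells without macrophage RNA, which held 8 and 10 UMIs.

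Izumo1r was at 16.6 CPM in WT T cells (83 UMIs) and 9.59 in KO-labelled ones (40 UMIs), a ratio of 0.576 (0.385 to 0.850). One WT cell with NK receptor RNA held 12 of the 83 UMIs, and without the highest cell of each library the ratio was 0.605 (0.393 to 0.916). In T barcodes with macrophage RNA the 2 libraries were level, at 19.9 and 18.5 (0.929, 0.794 to 1.08), from 408 and 279 UMIs. The lower Izumo1r level was therefore seen in T cells without macrophage RNA, and most of its UMIs lay in barcodes where it was level.

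Il10 was at 25.7 and 17.3 in T cells (0.673, 0.497 to 0.905), just short of 1.5-fold. The highest cell held 18 of the 128 WT UMIs and 16 of the 72 KO-labelled UMIs, and without these cells the ratio was 0.609 (0.433 to 0.847), past the fold. As a mean of single-cell levels, in which shallow cells weigh as much as deep ones, it was 1.09. In T barcodes with macrophage RNA Il10 was at 57.0 and 38.6 (0.677, 0.612 to 0.748), and in the Foxp3-positive ones at 150.0 and 92.0 (0.614, 0.537 to 0.700), where 2.69% of genes were lower. In Foxp3-positive T cells without macrophage RNA it was near level, at 463 in WT (66 UMIs) and 453 in the KO-labelled library (45 UMIs). Over the other settings that ratio ran from 0.585 to 1.71. Macrophages, an Il10 source, were level at 16.3 and 15.9 (0.974, 0.878 to 1.08).

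Within CD4 T cells 2 of 9 genes were lower in the KO-labelled library, Il10 at 0.549 and Izumo1r at 0.433, where 5.66% of genes were, and none was higher, against 4.89%. Foxp3 was at 1.65 (0.991 to 2.81), from 26 and 42 UMIs. In other T cells Foxp3 was at 0.265 (0.0997 to 0.602), from 37 and 7 UMIs, where 3.05% of genes were lower, and Tnfrsf4 at 0.608 (0.485 to 0.757). CD4 T cells thus held 26 of the 68 Foxp3 UMIs in WT and 42 of the 49 in the KO-labelled library. In Foxp3-positive T cells, 37 WT and 22 KO-labelled, 1 gene was lower, Izumo1r at 0.491 (0.240 to 0.943), where 4.11% of 1216 genes were, and none was higher, against 3.70%. That call was lost without the highest cell of each library. Foxp3-positive CD4 T cells, 13 and 15 cells, had 3 of 7 genes lower, Tnfrsf4 at 0.573 (0.455 to 0.722), Il10 at 0.361 (0.204 to 0.627) and Icos at 0.653 (0.488 to 0.876), where 8.44% of 652 genes were, and none higher, against 9.82%. Foxp3-negative CD4 T cells, 36 and 25 cells, also had 3 of 7 lower, Il2ra at 0.526 (0.298 to 0.894), Tnfrsf4 at 0.562 (0.390 to 0.798) and Tnfrsf18 at 0.532 (0.372 to 0.751), where 5.80% of 1206 genes were, and none higher, against 6.30%. Tnfrsf4 was thus lower on both sides of the split in these cells, but not past the fold over all CD4 T cells. In Foxp3-positive CD4 T barcodes with macrophage RNA, 128 and 110, Tnfrsf4 was at 687 CPM in WT and 707 in the KO-labelled library. Icos was at 548 and 540 there, and Il10 at 163 and 111. In the Foxp3-negative ones Tnfrsf4 was at 330 and 292, Il2ra at 199.8 and 182, and Tnfrsf18 at 274 and 273.

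T cells with NK receptor RNA had Ikzf2 at 171 CPM in WT and 265 in the KO-labelled library (ratio 1.55, 1.36 to 1.77), where 1.86% of genes were higher. The highest cell held 16 UMIs in both libraries, of 425 and 517. Tnfrsf4 was lower there, at 13.3 and 5.65 (0.426, 0.194 to 0.863), from 33 and 11 UMIs. NK cells had Tnfrsf4 at 3.30 and 1.88 (0.569, 0.328 to 0.946), from 70 and 20 UMIs. With Nt5e this made 2 of 7 genes lower in NK cells and none higher, where 2.46% of genes were lower and 1.52% higher. In these cells Il2ra was at 1.33 (1.20 to 1.46) and Ikzf2 at 1.42 (1.30 to 1.55), both short of 1.5-fold. Tnfrsf9, at its highest in NK cells, had a ratio of 0.991 (0.964 to 1.02). In mature dendritic cells Il2ra, Tnfrsf4 and Tnfrsf9 were level at 1.05, 1.01 and 1.10, and Ikzf2 was at 12.9 and 4.37 (0.339, 0.117 to 0.811), where 3.16% of genes were lower and 2.63% higher, with 8 of its 36 WT UMIs in 1 cell. Without doublet removal this Ikzf2 ratio was 0.859 (0.437 to 1.61), which ends the call.

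In monocytes and macrophages Il2ra (0.629) and Icos (0.646) were lower, where 5.12% of genes were, and none was higher, against 1.67%. The other genes except Il10 lay between 0.629 and 0.831, and the median log2 ratio of the 10 was -0.56 beside -0.06 over all genes. Their levels there were far below those in T cells, for Icos 7.12 and 4.60 CPM. In the same barcodes the 4 T cell markers stood at 11.5 CPM in WT and 8.36 in the KO-labelled library, where the gate allows at most 1 such UMI per barcode, and their part in this result was not tested.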

How the data were processed

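Per the labels' protocols and the submitters' processing notes, the authors counted UMIs with Cell Ranger on build mm10. The notes name Cell Ranger 5.0.1 and Seurat 4.0.4, while the deposited count matrices name Cell Ranger 6.1.1 in their headers. The deposited counts are whole UMI counts per gene and barcode, with no normalization. Both deposited libraries hold only barcodes with 500 UMIs or more.

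Barcodes were kept with at least 500 UMIs, 200 genes and at most 10% mitochondrial UMIs. Scrublet, as implemented in scanpy 1.11.5 (30 principal components), would by its own threshold have marked 0.0245% of WT and 11.5% of KO-labelled barcodes, so the 8% highest scores were removed in both. Cell types were gated by marker UMIs, and no gate used any of the 10 genes. The gate minimums were set after the marker distributions were seen. NK cells needed 3 UMIs, monocytes and macrophages 4, and mature dendritic cells 3. Counts were summed per population and divided by its total, with exact Poisson intervals, and ratios have exact conditional Poisson intervals at 95%. Where a count is 0, the value of 3 counts is given. Single cells were thinned to 1000 UMIs with fixed seeds for shares. Cells of 1 library are not replicates, so no p-value was computed. The ratio and call steps were checked on simulated counts. Promoters and gene positions came from RefSeq and GENCODE tables of GRCm38.

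The 10 genes and both lists (30 genes tied to regulatory T cells and 13 ligands, receptor chains and enzymes that pair with the 10) were chosen with earlier results of these data known. All 10 genes are named. Of the lists, up to 6 genes with the largest ratios could be named, and Entpd1 was named besides for its shared pathway with Nt5e, after its values were seen. The genes most like Foxp3 were the 5 with the highest correlation of log2(CPM + 10) over the gated types. Type 2 innate lymphoid barcodes (3 in WT, 0 in the KO-labelled library) were left out.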

Additional observations from a re-analysis of the deposited data

Results flagged for a closer look

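Ikzf2 moved in opposite directions between the libraries in 2 gated populations. In T cells with NK receptor RNA its ratio, labelled Ythdf2 KO over WT, was 1.55 (1.36 to 1.77, from 517 and 425 UMIs), and in mature dendritic cells it was 0.339 (0.117 to 0.811, from 6 and 36 UMIs). Both intervals leave out 1 and lie on opposite sides of it. The difference between the populations was not tested, since each has 1 library per genotype. NK cells, at 1.42 (1.30 to 1.55), and T cells as a whole, at 1.15 (1.07 to 1.25), lay on the same side as the T cells with NK receptor RNA. In mature dendritic cells 8 of the 36 WT UMIs came from 1 cell, and without doublet removal the ratio was 0.859 (0.437 to 1.61), short of 1.5-fold and with 1 inside the interval.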

How the results depend on the processing

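Over all settings, 903 recomputed values came from 60 ratios of single genes, and 843 of them lay within the counting interval of the ratio as reported. Of these 903 values 37 crossed 1: 36 belonged to ratios that were not past 1.5-fold, among them Il10 in T cells at 1.09 as a mean of single-cell levels, and 1 to a ratio that was, which is Izumo1r in Foxp3-positive over Foxp3-negative WT CD4 T cells, at 0.983 when positive cells needed 2 Foxp3 UMIs, from 26 UMIs. No paired analysis was possible because each genotype has 1 library. Nt5e stayed below 0.5 in T cells under all settings, from 0.373 with 5 T marker UMIs to 0.465 as a mean of single-cell levels. Izumo1r in T cells was 0.673 with a T marker minimum of 2, 0.859 with T barcodes with macrophage RNA counted and 0.929 in those alone. In 10 of the 20 ratios past 1.5-fold at least 1 setting ended the call. Among them, as means of single-cell levels, were Nt5e in NK cells (0.726) and Icos in monocytes and macrophages (0.743).

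The count of genes lower in T cells, 2, became 1 with a T marker minimum of 2, with T barcodes with macrophage RNA counted, and with those alone. In Foxp3-positive T cells 1 gene was lower; this count was 2 with T barcodes with macrophage RNA counted and in those alone, 4 with 2 Foxp3 UMIs required, and 0 without the highest barcode of each gene. By the mean of single-cell levels it was 0, and 1 gene was higher. The share of T cells with a Foxp3 UMI was 4.82% and 3.56% without thinning, 14.3% and 17.9% among CD4 T cells, 4.26% and 3.41% in T barcodes with macrophage RNA alone, and in WT 3.61% with those counted. The count of genes higher in Foxp3-positive WT CD4 T cells was 8 with the CD4 gate widened to T cells without Cd4 and 3 in thinned cells. The settings with T barcodes with macrophage RNA alone, without the highest barcodes, and without the limit on tumour and stroma RNA were chosen after seeing the data. Foxp3 comparisons within gated T cells rest on 37 and 22 positive cells.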

Other observations

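Partners of the 10 genes were read over the same gated types. Mature dendritic cells had the highest level of Tnfsf4, the ligand of OX40, at 115 CPM in WT and 160.1 in the KO-labelled library, and of Tnfsf9, the ligand of CD137, at 143 and 149. They also had the highest level of Adora2a, an adenosine receptor, at 102 and 111, and were themselves the type with the highest Tnfrsf4. Il2rb, the interleukin-2 receptor beta chain, was highest in NK cells at 950.0 and 933, and Il2rg, the common gamma chain, in T cells at 349 and 372. Il2 had 7 UMIs in WT T cells and 1 in KO-labelled ones. In T barcodes with macrophage RNA it had 28 UMIs in WT and 63 in the KO-labelled library, 1.36 against 4.17 CPM and a ratio of 3.06 (1.93 to 4.95), and was the 1 partner of 12 past the fold, where 1.54% of genes were higher and 2.77% lower. Tnfsf18, the ligand of GITR, had 1 UMI in T cells of each library. Entpd1, which acts before Nt5e, was highest in neutrophils at 427 and 510.2. Between the libraries in T cells, 0 of the 9 partners with 30 UMIs or more were past the fold in either direction, where 1.81% of genes were higher and 3.83% lower. Of the 26 regulatory T cell list genes with enough UMIs, 3 were lower (Itgae at 0.478, Il1rl1 at 0.226 and Socs2 at 0.629) and 1 was higher (Lag3 at 1.54), against the same shares.

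Over 28 points, 14 gated types and subsets in each of 2 libraries, the level of Foxp3 on a log2(CPM + 10) scale went most closely with Il10 (r = 0.927), Cd40lg (0.909), Izumo1r (0.907), Igsf23 (0.850) and Cd5 (0.848), out of 9576 genes. The points share libraries and gates and differ in depth, and few of them hold Foxp3, so these values only describe the order.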
